A study of Homo sapiens with 24 samples.

Results

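Collagens are proteins made of 3 chains wound into a triple helix. Most are secreted and form fibrils, sheets and filaments of the extracellular matrix, and some are transmembrane proteins. The collagen genes described here are those whose symbol on the array is COL, a number, A and a number, without the X-linked COL4A5 and COL4A6. This gave 39 genes among the 17687 genes with a symbol. COL3A1, COL7A1 and COL17A1 were not among these symbols, so those collagen genes were not read and the classes below lack them. The 39 genes were measured in ES8 cells, an established human Ewing sarcoma line, and in ES8-1F2. ES8-1F2 is 1 derivative made from ES8 cells by CRISPR/Cas9 knockout of SLFN11. Each line was irradiated with 2 Gy of gamma rays or left at 0 Gy, and total RNA was taken after 4 h or 24 h and hybridised to Affymetrix whole-transcript arrays. The 8 groups were therefore parental cells and knockout cells under each of 4 conditions (0 Gy or 2 Gy, read after 4 h or 24 h), with 3 arrays in each group and 24 arrays in all. Both lines grew in DMEM/F12 medium with glutamine and fetal bovine serum. The labels do not state that replicates came from separate cultures. The p-values therefore cover no more than the spread among these arrays, and that spread may be technical. The knockout is a single derivative line, so loss of SLFN11 and other differences between the lines cannot be told apart.

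As background, the fibril-forming collagens carry tensile load. Type I is the common fibril of bone and skin, types II and XI make the thin fibrils of cartilage, and type V is built into type I fibrils and starts their assembly. Type IV forms the network of basement membranes, type VI forms beaded filaments near cells, and the fibril-associated collagens sit on the surface of fibrils. Some types are built from the chain of 1 gene, such as types II and XII, and others, such as types I, IV, V, VI, IX and XI, join chains from different genes. Procollagen chains are hydroxylated and folded in the endoplasmic reticulum, trimmed after secretion and cross-linked by lysyl oxidases. Ewing sarcoma is a bone and soft tissue tumour driven by a fusion of EWSR1 with an ETS factor, usually FLI1, which binds DNA at GGAA.

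Values are log2 signals, and a difference of 1 log2 unit is a 2-fold difference in signal. A background level was set for each array at the 95th percentile of its 612 negative control probe sets, and it lay between 3.46 and 3.81. SLFN11 itself read 8.03 to 8.63 on the parental arrays and 6.33 to 7.07 on the knockout arrays, a difference of -1.47 (SE 0.07, limma adjusted p = 1.07e-18). Of 9 Ewing sarcoma markers, 8 were above background on every array, and NPY on 8 parental and 0 knockout arrays. All 9 were called between the lines on average over the 4 conditions, where 30.4% of all genes were called. Of these 9 markers, 4 were higher and 5 lower in the knockout line, with a median difference of -0.45. The array numbered 2 in each parental 2 Gy group had a narrow spread of signals. Its interquartile range was 3.28 after 4 h and 3.34 after 24 h, while every other array had at least 3.42. Signals of different probe sets cannot be set against each other, so the order of the collagens by amount is not given.

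Of the 39 collagen genes, 24 were above background on every array, 9 on some arrays and 6 on none. The 6 below background throughout were COL4A3, COL6A3, COL6A5, COL6A6, COL8A2 and COL10A1. Over all genes 65.4% were above background on every array and 17.6% on none. All fibrillar chains and all fibril-associated chains measured were above background on at least 1 array. This is a weak criterion, since some negative controls lie above that level too. COL24A1 was above it on only 1 of 24 arrays and COL14A1 on 3. Of the 5 type VI chains, 3 were below background on every array, among them COL6A3, the third chain of the classical type VI molecule.

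On average over the 4 conditions, 6 collagen genes were higher in the knockout line and 4 were lower at a limma adjusted p below 0.05, which is 25.6% of the 39. Over all genes 30.4% were called in this comparison, 15.8% higher and 14.6% lower, so the share among the collagen genes lay near the background. The higher genes were COL5A1, COL6A1, COL18A1, COL19A1, COL27A1 and COL5A2. The lower genes were COL12A1, COL11A1, COL1A2 and COL2A1. The median difference was -0.06 over the collagen genes and -0.02 over all genes, and the median absolute difference was 0.11 in both. Fewer cells with a transcript and less of it per cell cannot be told apart in bulk RNA.

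**Figure D1:**
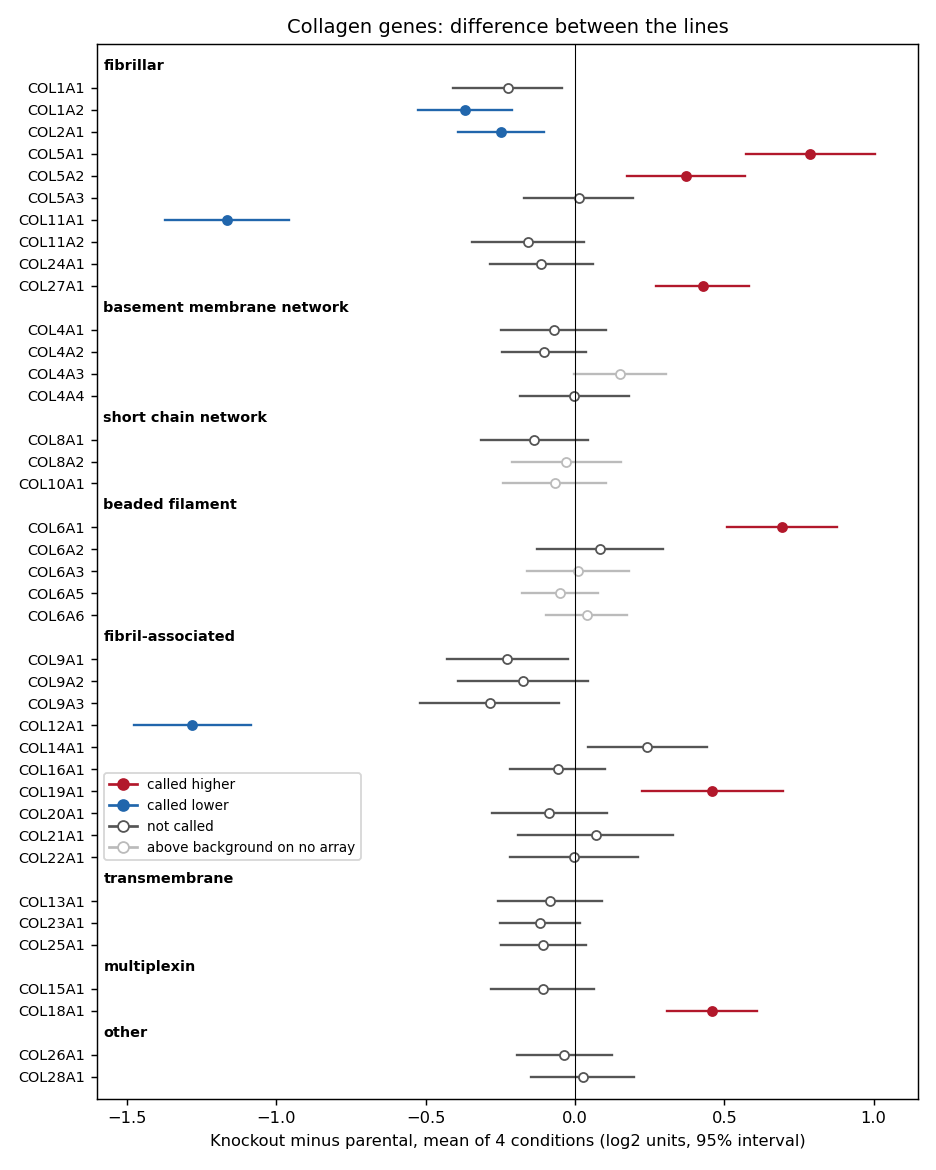
Difference in log2 signal between knockout and parental cells for each of the 39 collagen genes, averaged over the 4 conditions, with the 95% interval of the limma fit, grouped by structural class. COL11A1 and COL12A1 lie more than 1 log2 unit below 0, COL5A1 and COL6A1 lie farthest above it, and most other genes lie near 0.

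COL11A1 encodes the alpha1 chain of type XI collagen, which sits in the core of thin cartilage fibrils and limits their width. In parental cells the arrays read 6.36, 6.48 and 6.62 for 0 Gy, 4 h, 6.29, 6.64 and 6.34 for 2 Gy, 4 h, 6.46, 6.75 and 6.21 for 0 Gy, 24 h, and 6.63, 6.44 and 6.81 for 2 Gy, 24 h. In knockout cells they read 5.31, 5.27 and 4.84 for 0 Gy, 4 h, 5.71, 5.04 and 5.51 for 2 Gy, 4 h, 5.05, 5.59 and 5.91 for 0 Gy, 24 h, and 4.94, 5.17 and 5.72 for 2 Gy, 24 h. All 12 knockout arrays lay below all 12 parental arrays. The averaged difference was -1.17 (SE 0.10, limma adjusted p = 3.51e-11), a 2.24-fold lower signal. It was -1.35 at 0 Gy, 4 h, -1.0 at 2 Gy, 4 h, -0.96 at 0 Gy, 24 h and -1.36 at 2 Gy, 24 h (SE 0.20 each), and each of these was called.

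COL12A1 encodes the single chain of type XII collagen, a fibril-associated collagen that links fibrils to other matrix proteins. In parental cells the arrays read 3.75, 4.00 and 4.28 for 0 Gy, 4 h, 4.45, 3.92 and 4.56 for 2 Gy, 4 h, 4.37, 4.31 and 4.47 for 0 Gy, 24 h, and 4.69, 4.40 and 4.65 for 2 Gy, 24 h. In knockout cells they read 3.29, 2.99 and 2.88 for 0 Gy, 4 h, 2.84, 3.19 and 3.60 for 2 Gy, 4 h, 2.94, 2.79 and 2.74 for 0 Gy, 24 h, and 2.78, 3.19 and 3.22 for 2 Gy, 24 h. The gene was above background on 12 of 12 parental arrays and on 0 of 12 knockout arrays, and the lines did not overlap. The averaged difference was -1.28 (SE 0.10, limma adjusted p = 7.72e-13). Since the knockout signal was below background, only a bound on the fold can be given, and COL12A1 was at least 1.60-fold lower. For this bound the knockout signal on each array was raised to the background level wherever it lay under it. The difference was called in each condition and ranged from -0.95 at 0 Gy, 4 h to -1.56 at 0 Gy, 24 h (SE 0.19 each).

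COL5A1 encodes the alpha1 chain of type V collagen, the chain common to its main forms. In parental cells the arrays read 3.72, 3.61 and 3.56 for 0 Gy, 4 h, 3.99, 3.69 and 3.67 for 2 Gy, 4 h, 4.18, 4.08 and 3.93 for 0 Gy, 24 h, and 3.76, 4.08 and 3.37 for 2 Gy, 24 h. In knockout cells they read 4.68, 4.30 and 4.26 for 0 Gy, 4 h, 4.94, 4.41 and 4.49 for 2 Gy, 4 h, 4.62, 4.83 and 4.37 for 0 Gy, 24 h, and 5.32, 4.34 and 4.55 for 2 Gy, 24 h. All 12 knockout arrays lay above all 12 parental arrays. The parental signals were close to background, with 10 of 12 arrays above it. The averaged difference was 0.79 (SE 0.11, limma adjusted p = 2.91e-07), a 1.73-fold higher signal, and it ranged from 0.54 to 1.0 over the conditions.

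COL6A1 encodes the alpha1 chain of type VI collagen. In parental cells the arrays read 5.33, 5.57 and 4.99 for 0 Gy, 4 h, 5.26, 5.83 and 5.33 for 2 Gy, 4 h, 5.26, 5.73 and 5.43 for 0 Gy, 24 h, and 5.57, 6.09 and 5.32 for 2 Gy, 24 h. In knockout cells they read 6.08, 6.15 and 6.0 for 0 Gy, 4 h, 6.17, 6.12 and 6.17 for 2 Gy, 4 h, 6.23, 6.29 and 5.86 for 0 Gy, 24 h, and 6.38, 6.35 and 6.25 for 2 Gy, 24 h. Within each condition every knockout array lay above every parental array, although the lines overlapped across conditions. The averaged difference was 0.69 (SE 0.09, limma adjusted p = 1.36e-07), a 1.62-fold higher signal, and it ranged from 0.65 to 0.78 over the conditions.

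**Figure D2:**
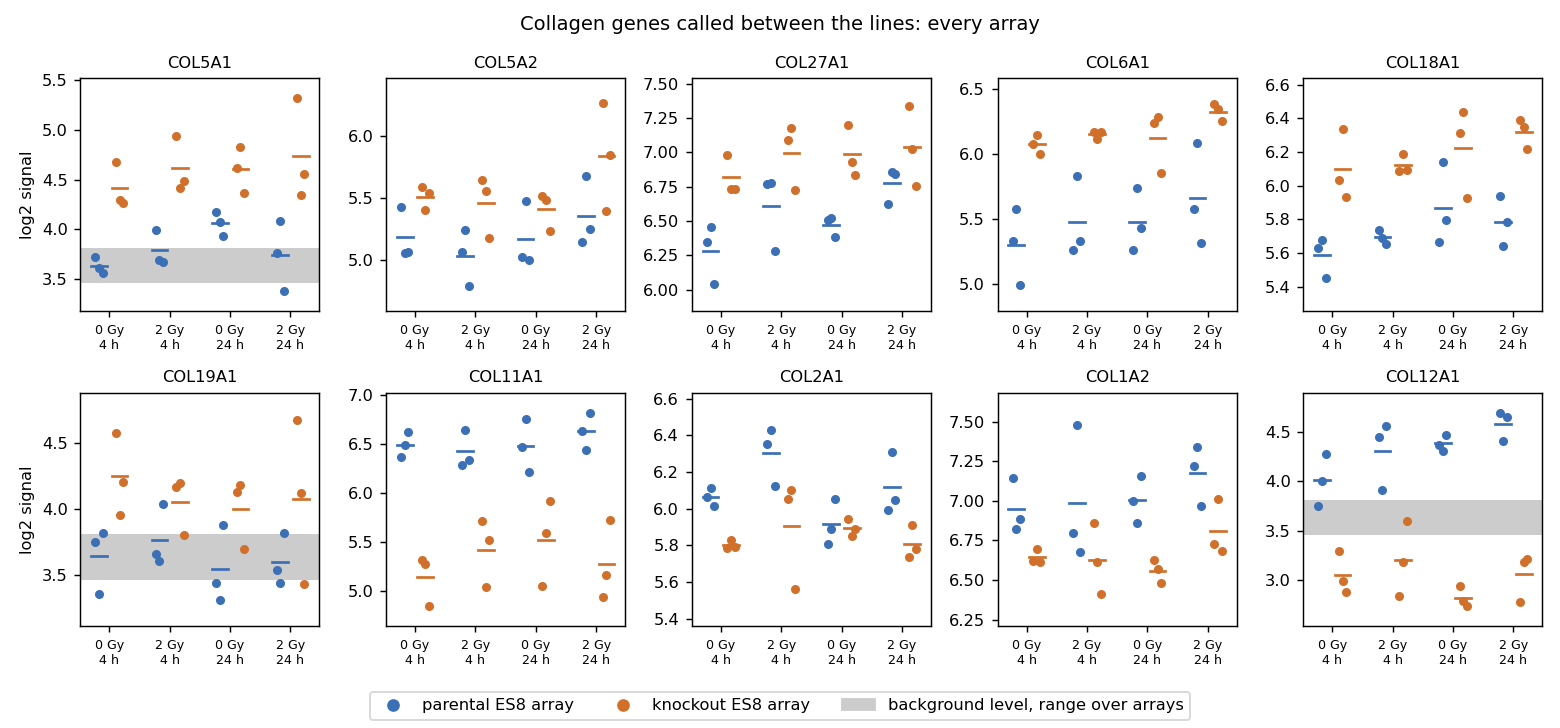
Log2 signal of the 10 collagen genes called between the lines, with 1 point for each array, a short line at the mean of 3 arrays, and the range of the background level over arrays as a grey band where it falls in the panel. COL11A1 and COL12A1 are lower on every knockout array than on every parental array, COL5A1 is higher on every knockout array, and COL12A1 in knockout cells lies below the background band or inside it.

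Over all genes 999, or 5.65%, had lines that did not overlap across the 24 arrays, and 3 of the 39 collagen genes (7.69%) did. Promoter sequence is shown for these 3 genes, COL5A1, COL11A1 and COL12A1, and for the stretch shared by COL4A1 and COL4A2, the type IV pair that was not called. Each promoter is the 250 bases before the RefSeq gene start on the gene's strand, in GRCh38.p14, and the type IV stretch is the 126 bases between both starts. Capitals mark GGAA, the core of ETS sites, and CCAAT, each on either strand. The coordinates are chr9:134641553-134641802 on the plus strand for COL5A1, chr1:103108523-103108772 on the minus strand for COL11A1, chr6:75206054-75206303 on the minus strand for COL12A1 and chr13:110307158-110307283, given on the plus strand, for COL4A1 and COL4A2.
COL5A1: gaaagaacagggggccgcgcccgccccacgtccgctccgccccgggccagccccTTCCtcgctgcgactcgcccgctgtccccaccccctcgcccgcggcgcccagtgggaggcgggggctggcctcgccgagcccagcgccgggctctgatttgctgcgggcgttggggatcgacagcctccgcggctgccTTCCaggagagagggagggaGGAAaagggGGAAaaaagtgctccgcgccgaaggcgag
COL11A1: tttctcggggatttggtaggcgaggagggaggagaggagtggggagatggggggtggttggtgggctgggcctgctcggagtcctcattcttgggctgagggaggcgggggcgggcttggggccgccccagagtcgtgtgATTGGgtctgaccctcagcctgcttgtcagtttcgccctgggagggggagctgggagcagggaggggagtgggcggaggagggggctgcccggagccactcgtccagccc
COL12A1: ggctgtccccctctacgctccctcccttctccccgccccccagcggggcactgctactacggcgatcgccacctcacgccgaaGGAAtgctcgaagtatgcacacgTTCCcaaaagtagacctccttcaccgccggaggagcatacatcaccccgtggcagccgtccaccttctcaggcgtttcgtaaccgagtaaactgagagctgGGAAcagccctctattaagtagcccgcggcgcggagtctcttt
COL4A1 and COL4A2: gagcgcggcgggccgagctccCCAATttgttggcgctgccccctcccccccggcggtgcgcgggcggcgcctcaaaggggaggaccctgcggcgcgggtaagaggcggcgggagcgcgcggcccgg
GGAA occurred 4 times before COL5A1, 3 times before COL12A1 and 0 times before COL11A1. Over 35116 RefSeq promoter windows of the same length 92.7% held GGAA, with a median of 3 matches. CCAAT occurred once before COL11A1, on the reverse strand, and not before COL5A1 or COL12A1, and 32% of the windows held it. The tandem GGAAGGAA was in none of these windows and in 3.06% of all windows. A match is a run of letters in this window and was not read as a binding site. A promoter entry was found for 28 of the 39 collagen genes.

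The fibrillar class held 10 genes, of which 3 were higher and 3 lower in the knockout line, where 15.8% of all genes were higher and 14.6% lower. Type I collagen, the main fibril of bone, pairs COL1A1 with COL1A2. COL1A2 read from 6.68 to 7.48 in parental cells (median 6.98) and from 6.41 to 7.01 in knockout cells (median 6.62), with overlap. It fell by 0.37 on average (SE 0.08, limma adjusted p = 0.000279), and the differences at 0 Gy and 2 Gy were -0.30 and -0.35 after 4 h and -0.45 and -0.37 after 24 h. COL1A1 read 5.49 to 6.32 (median 5.81) and 5.41 to 6.0 (median 5.57), and its averaged difference of -0.23 (95% interval -0.41 to -0.04) did not pass the test (adjusted p = 0.0548). COL2A1, the chain of type II collagen and the third chain of type XI, read from 5.81 to 6.43 in parental cells (median 6.06) and from 5.56 to 6.10 in knockout cells (median 5.84). Its averaged difference was -0.25 (SE 0.07, adjusted p = 0.00587), with overlap between the lines. At 0 Gy and 2 Gy it differed by -0.26 and -0.40 after 4 h and by -0.02 and -0.31 after 24 h.

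Type V and the minor fibrillar chains went the other way or did not pass the test. COL5A2, the usual partner of COL5A1, read from 4.79 to 5.68 in parental cells (median 5.11) and from 5.18 to 6.27 in knockout cells (median 5.53). It was higher by 0.37 (SE 0.10, limma adjusted p = 0.00311), with overlap, and by 0.33 and 0.43 at 0 Gy and 2 Gy after 4 h and 0.24 and 0.48 after 24 h. COL27A1, a fibrillar chain found in cartilage, read from 6.04 to 6.85 (median 6.51) and from 6.72 to 7.34 (median 6.95), a difference of 0.43 (SE 0.08, adjusted p = 3.35e-05). The parental and knockout ranges of COL27A1 overlapped from 6.72 to 6.85, and several arrays of each line lay in that stretch. By condition the difference was 0.54 and 0.39 at 0 Gy and 2 Gy after 4 h and 0.52 and 0.27 after 24 h. COL5A3 (0.01, SE 0.09), COL11A2 (-0.16, SE 0.09) and COL24A1 (-0.11, SE 0.08) did not pass, and COL24A1 was above background on 1 of 24 arrays.

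Among the 10 fibril-associated genes, 1 was lower and 1 was higher, where 14.6% of all genes were lower and 15.8% higher. The lower gene was COL12A1. The higher gene was COL19A1, a fibril-associated chain of low abundance in most tissues. It read from 3.31 to 4.04 in parental cells (median 3.63) and from 3.43 to 4.68 in knockout cells (median 4.15), and 8 parental and 10 knockout arrays were above background. Its averaged difference was 0.46 (SE 0.12, limma adjusted p = 0.00216), so this is a difference at the edge of detection. It was 0.61 and 0.29 at 0 Gy and 2 Gy after 4 h and 0.46 and 0.48 after 24 h. The type IX chains, which coat cartilage fibrils, did not pass the test: COL9A1 differed by -0.23 (adjusted p = 0.0886), COL9A2 by -0.17 (adjusted p = 0.245) and COL9A3 by -0.29 (adjusted p = 0.0574). COL14A1, a relative of COL12A1, differed by 0.24 (adjusted p = 0.0588) and was above background on 1 parental and 2 knockout arrays.

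Without single arrays, 4 genes outside the call crossed the threshold in the averaged comparison. COL1A1 passed without any 1 of 7 arrays (limma adjusted p = 0.0223 to 0.0428). These were parental replicate 3 of 0 Gy, 4 h, of 2 Gy, 4 h and of 2 Gy, 24 h, parental replicate 1 of 2 Gy, 4 h and of 2 Gy, 24 h, knockout replicate 2 of 0 Gy, 24 h and knockout replicate 1 of 2 Gy, 4 h. COL9A3 passed without any 1 of 8 arrays (adjusted p = 0.0242 to 0.0486), namely parental replicates 1 of 0 Gy, 4 h and 2 Gy, 4 h, parental replicates 3 of 0 Gy, 24 h, 2 Gy, 4 h and 2 Gy, 24 h, and knockout replicates 3 of 0 Gy, 4 h, 2 of 0 Gy, 24 h and 2 of 2 Gy, 4 h. COL14A1 passed without any 1 of 6 arrays (adjusted p = 0.0199 to 0.0438), namely parental replicates 1 of 0 Gy, 24 h, 3 of 2 Gy, 4 h and 2 of 2 Gy, 24 h, and knockout replicates 1 of 0 Gy, 4 h, 1 of 0 Gy, 24 h and 3 of 2 Gy, 24 h. COL9A1 passed without knockout replicate 2 of 0 Gy, 24 h (adjusted p = 0.0247), and without that array 7 collagen genes were lower in place of 4. The 10 called genes kept their call without each of the 24 arrays.

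COL18A1, a basement membrane collagen whose end fragment is endostatin, was 1 of 2 multiplexins. It read from 5.45 to 6.14 in parental cells (median 5.68) and from 5.93 to 6.44 in knockout cells (median 6.20). The lines overlapped slightly, and the averaged difference was 0.46 (SE 0.07, limma adjusted p = 6.75e-06). At 0 Gy and 2 Gy it was 0.51 and 0.43 after 4 h and 0.36 and 0.53 after 24 h. COL15A1, the other multiplexin, differed by -0.11 (95% interval -0.28 to 0.06) and was not called. Of the 4 type IV chains of basement membranes none was called, and COL4A1 (-0.07, 95% interval -0.25 to 0.10) and COL4A2 (-0.10, 95% interval -0.24 to 0.04) were above background on every array. The 3 transmembrane collagens, COL13A1, COL23A1 and COL25A1, differed by -0.12 to -0.08 and were not called. The 3 short chain collagens of the COL8 and COL10 types and the 2 others, COL26A1 and COL28A1, were not called either, and COL8A1 was the only short chain gene above background.

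Type VI showed 1 changed chain. COL6A2, which lies next to COL6A1 on chromosome 21, read from 4.59 to 5.45 in parental cells and from 4.50 to 5.45 in knockout cells. Its averaged difference was 0.08 (95% interval -0.13 to 0.29, limma adjusted p = 0.611), against 0.69 for COL6A1. COL6A3, COL6A5 and COL6A6 were below background on every array, so a difference in them could not be measured.

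In single conditions the count of collagen genes called was smaller. The 0 Gy, 4 h arrays gave 4 higher (COL5A1, COL6A1, COL18A1 and COL27A1) and 2 lower (COL11A1 and COL12A1), against 6.27% of all genes called higher and 5.5% called lower. At 2 Gy, 4 h 2 were higher (COL5A1 and COL6A1) and the same 2 lower, against 6.87% and 5.13%. At 0 Gy, 24 h 3 were higher (COL6A1, COL27A1 and COL4A3) and the same 2 lower, against 6.47% and 5.09%. At 2 Gy, 24 h 3 were higher (COL5A1, COL6A1 and COL18A1) and the same 2 lower, against 6.29% and 5.68%. COL11A1, COL12A1 and COL6A1 were thus called in all 4 conditions and COL5A1 in 3. COL5A1 at 0 Gy, 24 h differed by 0.54 (SE 0.21, limma adjusted p = 0.103) without overlap between the lines. COL4A3 was called at 0 Gy, 24 h (0.63, SE 0.15, adjusted p = 0.00363) but was above background on no array, so no fold is given. In the other conditions COL4A3 differed by 0.17, -0.34 and 0.14, and none of these passed.

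With 3 arrays a side, several of these calls rested on single arrays, and those of COL11A1, COL12A1 and COL4A3 did not. Each value here is the limma adjusted p without the array named. At 0 Gy, 4 h COL5A1 was lost without knockout replicate 1 (0.0883), COL18A1 without parental replicate 3 (0.0919) or knockout replicate 2 (0.146), and COL27A1 without parental replicate 3 (0.126) or knockout replicate 1 (0.103). Among the 2 Gy, 4 h arrays COL5A1 was lost without knockout replicate 1 (0.0665) and COL6A1 without parental replicate 1 (0.0651). At that condition COL2A1 became lower without parental replicate 3 (0.0331) or knockout replicates 1 (0.0497) or 2 (0.0352), COL1A2 became lower without parental replicate 3 (0.036), and COL27A1 became higher without knockout replicate 3 (0.0354). Across these changes the count higher there ran from 1 to 3 and the count lower from 2 to 4. Among the 0 Gy, 24 h arrays COL6A1 was lost without parental replicate 1 (0.0908) or knockout replicates 1 (0.0659) or 2 (0.0722), and COL27A1 without parental replicate 3 (0.0911) or knockout replicate 1 (0.153). At that condition COL18A1 became higher without parental replicate 2 (0.0432) or knockout replicate 3 (0.033). Among the 2 Gy, 24 h arrays COL6A1 was lost without parental replicate 3 (0.111), and COL18A1 without parental replicate 2 (0.0764) or knockout replicate 1 (0.0616). At that condition COL5A2 became higher without parental replicate 2 (0.0474) or knockout replicate 2 (0.0215), and COL19A1 without knockout replicate 3 (0.0181).

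Chains that join in 1 molecule were compared by the change of their log2 signal difference from the parental to the knockout line, which does not need their absolute levels. There were 12 pairs of chains of 1 collagen type, COL2A1 counted with type XI, in which each chain was above background on every array of at least 1 line. Arrays were permuted between the lines within each condition (exact permutation test, two-sided, 160000 arrangements, smallest possible p 1.25e-05) and the p-values were adjusted over the 12 pairs. The pairs share chains, and a pair with a called chain is not independent of that call. The type XI ratio of COL11A1 to COL11A2 fell by 1.01 (exact permutation adjusted p = 0.000188), and that of COL11A1 to COL2A1 fell by 0.92 (exact permutation adjusted p = 0.00015). COL11A2 and COL2A1 moved relative to each other by 0.09 (exact permutation adjusted p = 0.422). Of the 3 type XI chains, COL11A1 was the one whose ratio to both others changed.

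In type V the ratio of COL5A2 to COL5A3 rose by 0.36 (exact permutation adjusted p = 0.00388). COL5A1 was above background on every array in the knockout line only, where it is high, so its ratios are given without a test. They were higher in the knockout line by 0.42 against COL5A2 and by 0.77 against COL5A3. In type VI the ratio of COL6A1 to COL6A2 rose by 0.61 (exact permutation adjusted p = 0.000188). Each of these 6 ratios of COL11A1, COL5A1, COL5A2 and COL6A1 moved the same way in all 4 conditions. The type I ratio of COL1A1 to COL1A2 changed by 0.14 (exact permutation adjusted p = 0.0876), and that of the type IV pair COL4A1 and COL4A2 by 0.03 (exact permutation adjusted p = 0.794). The pairs of COL4A4 with COL4A1 and with COL4A2 did not pass either, with changes of -0.07 and -0.10. COL9A3 was above background on every array in the parental line only, and its ratio to COL9A2 changed by 0.11, given without a test.

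**Figure D3:**
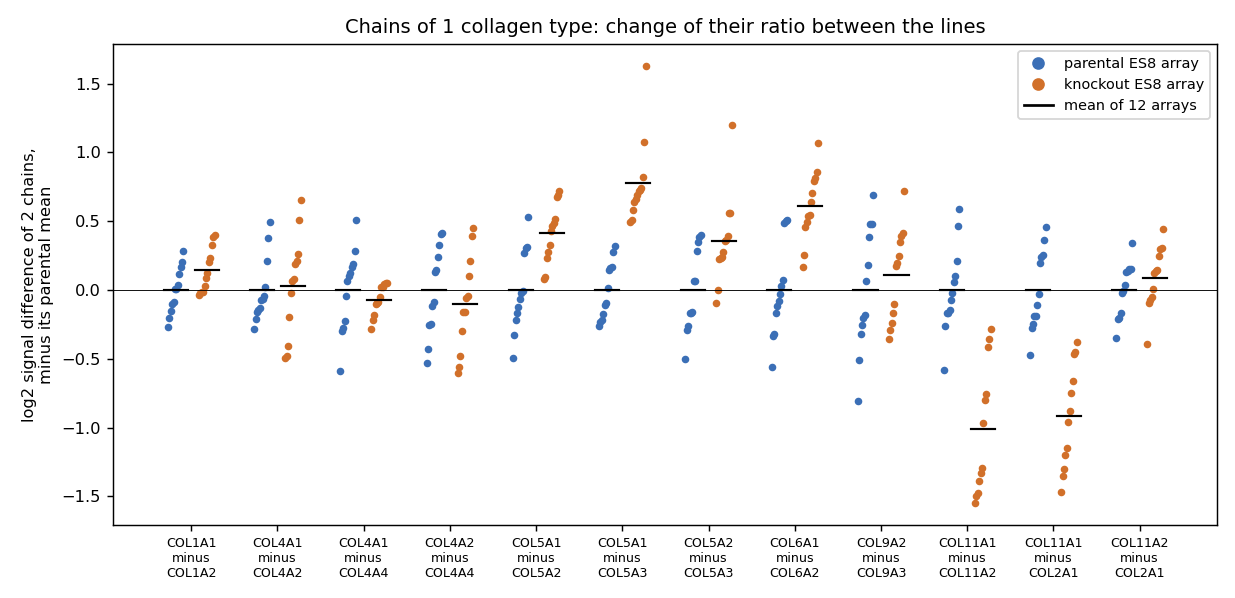
Log2 signal difference between 2 chains of 1 collagen type on each array, minus the parental mean of that pair, with 1 point for each array and a bar at the mean of 12 arrays. The pairs of COL11A1 lie near -1 in knockout cells, the pairs of COL5A1 and COL6A1 lie above 0, and the pairs within types I and IV lie near 0.

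The genes beside a collagen gene on its chromosome were read from the RefSeq order (GRCh38.p14), 50 measured genes on each side where the chromosome allowed. Over all genes, 14.6% were called lower and 15.8% higher in the averaged comparison, which is the share to set beside the counts of neighbours. Around COL11A1 on chromosome 1, 50 of 100 neighbours were lower and 5 higher in the knockout line. Their median was -0.25 over the 49 neighbours with a mean signal above 6, against -1.17 for COL11A1. Around COL1A1 on chromosome 17, 38 of 100 were lower, with a median of -0.21 over the brighter neighbours, close to the -0.23 of COL1A1 itself. Around COL2A1 on chromosome 12, 44 of 100 were lower, with a median of -0.14 against -0.25 for COL2A1. Around COL24A1 on chromosome 1, 45 of 100 were lower, with a median of -0.37 over the brighter neighbours, and COL24A1 differed by -0.11. In these 4 stretches the lower calls outnumbered the higher ones, although single neighbours were higher, such as OLFM3 beside COL11A1 (1.17). The part of the neighbours' shift in the values of COL1A1, COL2A1, COL11A1 and COL24A1 was not tested.

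The other strongly changed genes stood in stretches with a median near 0. Over the brighter neighbours it was 0.03 around COL12A1 on chromosome 6, 0.03 around COL5A1 on chromosome 9 and 0.04 around COL6A1 on chromosome 21. Around COL13A1 on chromosome 10, 52 of 100 neighbours were higher, with a brighter median of 0.34, while COL13A1 differed by -0.08. Around COL14A1 on chromosome 8 the brighter median was 0.45, with 33 of 100 neighbours higher and 22 lower, and COL14A1 differed by 0.24. The shares over all genes for both stretches are 15.8% higher and 14.6% lower. COL19A1 and COL9A1, which are adjacent on chromosome 6, differed by 0.46 and -0.23.

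The genes that make collagen were given by a list of 39, of which 37 were measured. In the averaged comparison 13 were higher and 5 lower in the knockout line, with a median of 0.08. Over all genes 30.4% were called, 15.8% higher and 14.6% lower. The largest fall was of LOX, the lysyl oxidase that cross-links fibrils, which read 6.30 ± 0.26 (SD, n = 12) in parental and 3.77 ± 0.24 (SD, n = 12) in knockout cells. The difference was -2.53 (SE 0.09, limma adjusted p = 8.02e-21), and 8 of 12 knockout arrays were above background. LOXL1, a related oxidase best known for elastin, went up by 0.47 (SE 0.08, adjusted p = 1.59e-05). TLL1, which trims procollagen, was higher by 0.99 (SE 0.13, adjusted p = 1.22e-07), and SEC13, a coat protein of vesicles leaving the endoplasmic reticulum, by 0.51 (SE 0.04, adjusted p = 1.9e-11). PLOD2, which hydroxylates lysines of the chain ends, fell by 0.30 (SE 0.06, adjusted p = 7.8e-05). ADAMTS3, which removes the N-terminal propeptide, was called lower (-0.35, SE 0.08) but was above background on no array, so no fold is given. By role, 4 of 9 prolyl hydroxylation genes were higher and 2 lower, against 15.8% and 14.6% of all genes. Of 7 genes of export from the endoplasmic reticulum 3 were higher, and 6 of 8 processing genes were not called.

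Of 20 matrix partners measured, 3 were higher and 2 lower, with a median of -0.06, where 15.8% of all genes were higher and 14.6% lower. NID1, nidogen-1, which bridges laminin and type IV collagen, rose most, from 4.38 ± 0.45 (SD, n = 12) to 5.77 ± 0.34 (SD, n = 12), a difference of 1.39 (SE 0.13, limma adjusted p = 7.36e-11). FN1, fibronectin, was higher by 0.45 (SE 0.08, adjusted p = 2.78e-05) and SPARC, a collagen-binding protein, by 0.37 (SE 0.08, adjusted p = 0.000218). LUM, lumican, and OGN, osteoglycin, are small proteoglycans of fibrils. LUM differed by -1.26 (SE 0.10) and OGN by -0.94 (SE 0.09), and both were above background on 9 parental and 0 knockout arrays. They were at least 1.07-fold and at least 1.00-fold lower, so the OGN bound shows no measurable fold. No laminin chain measured was called, and of 10 basement membrane partners 9 were not called.

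Of 12 collagen receptors measured, 1 was higher and 2 were lower, and the shares over all genes for this and the degradation list are the same 15.8% and 14.6%. MRC2, an endocytic receptor that takes up collagen, rose by 0.42 (SE 0.08, limma adjusted p = 4.05e-05). DDR1, a collagen-binding receptor tyrosine kinase, fell by 0.40 (SE 0.11, adjusted p = 0.00718), and ITGA2, an integrin chain, was called lower (-0.60, SE 0.09) but was above background on no array. Of 10 genes of collagen degradation, 3 were higher and 1 lower. MMP2, a gelatinase, rose from 8.08 ± 0.21 (SD, n = 12) to 9.15 ± 0.12 (SD, n = 12), a difference of 1.07 (SE 0.06, adjusted p = 2.03e-16). MMP14, a membrane-bound collagenase that activates MMP2, rose by 0.45 (SE 0.09, adjusted p = 0.000209), and TIMP3, an inhibitor of these enzymes, by 0.21 (SE 0.07, adjusted p = 0.0225). CTSK, cathepsin K, a protease that cuts collagen, fell by 0.70 (SE 0.08, adjusted p = 3.09e-08).

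**Figure D4:**
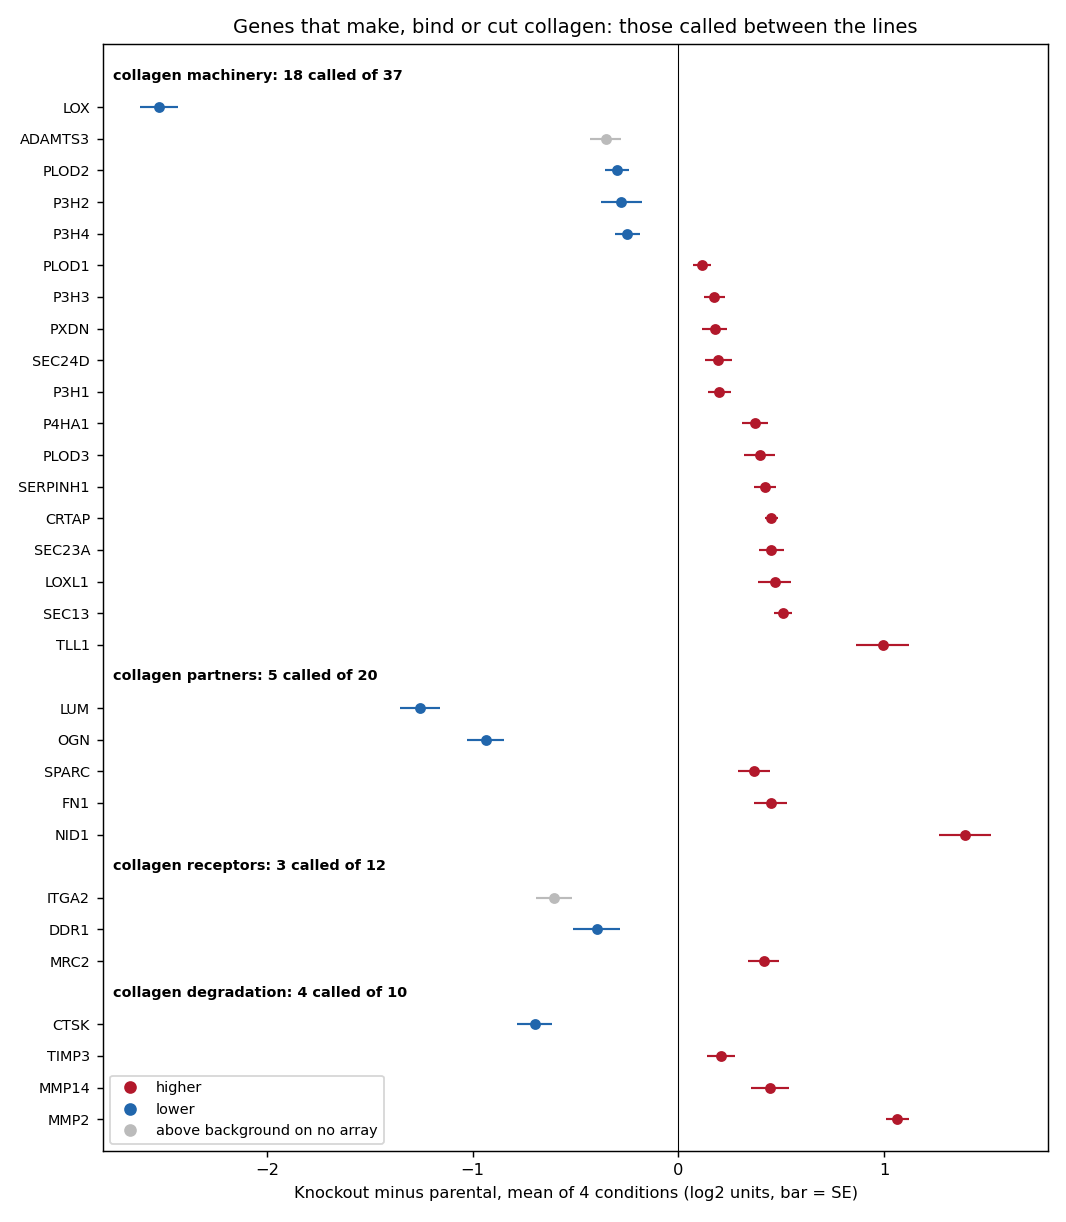
Difference in log2 signal between knockout and parental cells, averaged over the 4 conditions, for the genes of collagen production, partners, receptors and degradation that were called, with a bar of 1 SE on each side. LOX lies at -2.53, and NID1 and MMP2 lie above 1, while most of the called production genes lie between 0 and 1.

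Markers of other cells that make collagen were read beside these values. Of 9 fibroblast markers 4 were above background on every array and 3 on none (FAP, DPT and POSTN). The fibroblast list had 3 genes higher and 2 lower in the averaged comparison, where 15.8% of all genes were higher and 14.6% lower. PDGFRA (0.83), TWIST2 (0.56) and THY1 (0.28) were higher, and LUM (-1.26) and PDGFRB (-0.18) were lower. The summed log2 signal of the fibroblast list was 39.1 to 42.4 on parental arrays and 39.8 to 42.1 on knockout arrays. Of 7 cartilage and bone markers, SOX9 was above background on every array, and ACAN, MATN1, SP7 and IBSP on none. RUNX2 was above background on 19 arrays and was not called. MATN3 was called higher (0.24, SE 0.09, limma adjusted p = 0.0495) but was above background on 1 array, so no fold is given. It was the only call in the cartilage and bone list, where 15.8% of all genes were higher and 14.6% lower. The summed log2 signal of that list was 23.1 to 25.3 on parental arrays and 23.5 to 25.2 on knockout arrays. Both sums overlapped between the lines, and a sum does not show opposite changes of single genes.

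After 2 Gy, 0 of 39 collagen genes were called in either line at either time. Over all genes, limma called 0.226% in parental cells at 4 h, 0.0678% in parental cells at 24 h, 0% in knockout cells at 4 h and 0% in knockout cells at 24 h. At an unadjusted p below 0.05, 6, 1, 2 and 3 collagen genes passed in that order, where 6.69%, 6.93%, 3.3% and 4.16% of all genes did. The lowest adjusted p was 0.556, for COL4A2 in parental cells at 4 h. The 95% intervals of a response reached a median of 0.36 log2 units on either side. The largest bound of any interval was 1.18, for COL21A1 in parental cells at 4 h, so a change of moderate size in a single gene may be missed.

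COL21A1, a fibril-associated chain, had the lowest response of any collagen gene, -0.66 in parental cells at 4 h (95% interval -1.18 to -0.14, limma adjusted p = 0.629). Its parental arrays at 2 Gy, 4 h read 5.52, 5.41 and 4.39, and without replicate 3 the response was -0.30. In knockout cells at 4 h COL21A1 was also the lowest collagen gene, at -0.40, and was not called. That value ran from -0.64 to -0.18 without single arrays. COL4A4, a basement membrane chain, had the highest response in parental cells at 4 h, 0.49 (adjusted p = 0.582). COL4A2 differed by 0.39 in parental cells at 4 h (adjusted p = 0.556) and by 0.40 in knockout cells at 24 h (adjusted p = 0.999), without passing the test. COL11A1 gave responses of -0.07 and 0.15 in parental cells at 4 h and 24 h and of 0.28 and -0.24 in knockout cells, and COL12A1 gave 0.30, 0.20, 0.15 and 0.24 in that order. These 5 genes were picked after their values were seen.

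The responses of the collagen genes were above 0 more often than not in both lines. In parental cells 32 of 39 lay above 0 at 4 h, with a median of 0.13, and 25 of 39 at 24 h, with a median of 0.09. In knockout cells 24 and 26 of 39 lay above 0, with medians of 0.04 and 0.09. Over all genes 53.3%, 51.9%, 51.4% and 49.4% lay above 0. The medians over all genes were 0.01, 0.01, 0.00 and -0.00, and over the 10690 genes with a mean signal below 6, which held 34 of the collagen genes, they were 0.03, 0.02, 0.02 and 0.01. Without both parental 2 Gy arrays numbered 2, the arrays with the narrowest signal ranges, the parental medians were 0.05 and -0.01, with 23 and 18 genes above 0. These medians without both arrays were chosen after seeing the data.

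**Figure D5:**
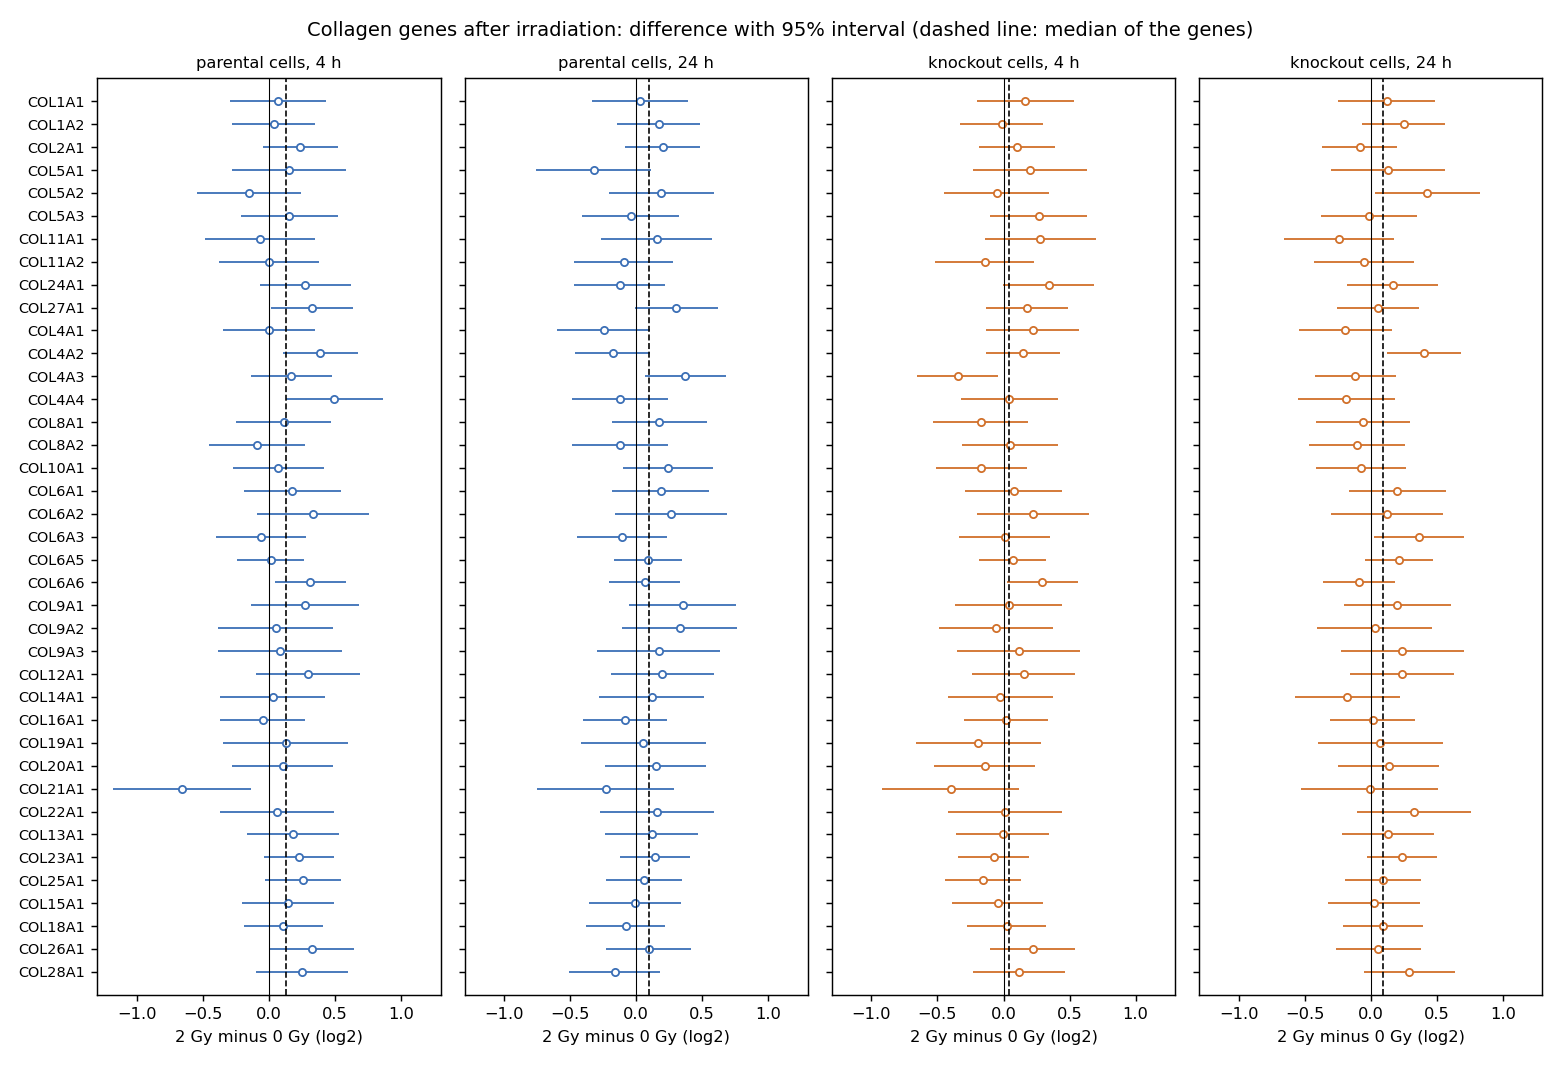
Difference in log2 signal between 2 Gy and 0 Gy for each of the 39 collagen genes in each line and at each time, with the 95% interval of the limma fit and a dashed line at their median. Nearly all intervals include 0, and the medians lie between 0.04 and 0.13.

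The difference of the 2 Gy responses between the lines was not called for any of the 39 collagen genes at 4 h or 24 h, and limma called 0% and 0% of all genes. At an unadjusted p below 0.05, 2 genes passed at each time, COL25A1 and COL4A3 at 4 h and COL4A2 and COL4A3 at 24 h, and COL4A3 was above background on no array. Over all genes 2.61% and 3.17% passed at that level. The median 95% interval of such a difference reached 0.51 log2 units on either side. For COL11A1 the difference of responses was 0.35 at 4 h and -0.40 at 24 h, and for COL12A1 it was -0.14 and 0.04.

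The time comparisons use the same arrays as the responses. Between 4 h and 24 h, 0 of 39 collagen genes were called in any of the 4 comparisons. Over all genes, limma called 0% in parental cells at 0 Gy, 0.695% in parental cells at 2 Gy, 0% in knockout cells at 0 Gy and 0.0452% in knockout cells at 2 Gy. At an unadjusted p below 0.05, 1, 2, 0 and 2 collagen genes passed in that order, where 4.69%, 8.8%, 6.87% and 7.94% of all genes did. COL5A1 had the largest rise in parental cells at 0 Gy, 0.43, and COL21A1 had the largest in knockout cells at 2 Gy, 0.47. In parental cells at 2 Gy COL21A1 differed by 0.42, and by 0.06 without the parental 2 Gy, 4 h replicate 3. None of these passed the test.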

How the data were processed

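The series holds 24 Affymetrix arrays of ES8 cells and of their SLFN11 knockout derivative, 3 for each line, dose and time. The authors deposited 1 log2 signal for each probe set and array. They made it with Affymetrix Expression Console 1.1 and RMA (which corrects background, quantile-normalizes the arrays and summarises probes), per the submitters' processing notes. The set of arrays that shared a normalization is not stated in these sources. Quantile normalization makes the distributions of arrays alike, so differences are relative to the other genes. Of 24351 probe sets, 17709 had 1 gene symbol in the platform annotation, 0 had several and 6642 had none. For 20 genes with several probe sets the one with the highest mean was kept, which left 17687 genes, and each collagen gene had a single probe set. No filter on dim genes was applied. Arrays carry no read depth, so their number limits the precision.

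Tests used limma 3.58.1 in R 4.3.3 (lmFit with 1 mean per group over all 24 arrays, eBayes with an intensity trend) with Benjamini-Hochberg adjustment over the 17687 genes and a call where the adjusted p was under 0.05. The comparisons were knockout minus parental in each condition and averaged over the 4 conditions, 2 Gy minus 0 Gy, the difference of these responses, and 24 h minus 4 h. The script was tested on simulated data. The collagen genes, their classes, the pathway and marker lists and the tests were chosen with earlier results of these data known. For each collagen gene called in the averaged comparison the difference in each condition was given or its range over the conditions, 4 of them were also given array by array, the other collagen genes by counts, ranges or averaged differences, and of each pathway list the called genes with the 3 largest rises and the 3 largest falls were named, or fewer where fewer were called. Other named genes were picked after their values were seen. Same-numbered replicates deviated together (all 3 correlations of deviations from group means over 0.1) in 4 of 12 comparisons of 2 groups: knockout minus parental at 0 Gy, 4 h (0.103 to 0.168) and at 2 Gy, 24 h (0.151 to 0.231), and 2 Gy minus 0 Gy in knockout cells at 4 h (0.154 to 0.269) and 24 h (0.134 to 0.237). The alternatives were another choice of probe set, no intensity trend, array weights, a filter on dim genes, arrays shifted to 1 median, only the compared arrays, a replicate block, both narrow arrays left out, and each array left out in turn.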

Additional observations from a re-analysis of the deposited data

How the results depend on the processing

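The 10 collagen genes called between the lines on average kept their direction and call in the 7 other settings and without each of the 24 arrays. Among these settings, the mean of probe sets left the collagen signals as they were, since each collagen gene had a single probe set. Of 170 recomputed counts whose reported value was above 0, 161 stayed within 1.5 times it. Adding the replicate number as a block gave 7 higher and 6 lower collagen genes on average, with COL14A1, COL1A1 and COL9A3 added, and changed the line difference at 2 Gy, 4 h to 4 higher and 4 lower, with COL18A1, COL27A1, COL2A1 and COL9A1 added. At 0 Gy, 24 h the block gave 4 higher and 3 lower, with COL5A1 (limma adjusted p = 0.0424) and COL1A2 (0.0234) added, so COL5A1 was then called in all 4 conditions. The block changed no call at 0 Gy, 4 h or 2 Gy, 24 h, the line comparisons with all 3 replicate correlations over 0.1. Where it did add calls, these correlations were 0.0821 to 0.333 at 2 Gy, 4 h and 0.0629 to 0.0715 at 0 Gy, 24 h. The correlations at 2 Gy, 4 h thus reached higher than in the comparisons that kept their calls. The labels do not state that the numbers pair samples. Other settings changed calls too, among them the following. On average COL14A1 was also higher with array weights, with arrays shifted to 1 median and without both narrow arrays. COL1A1 and COL9A3 were also lower with the filter on dim genes. At 2 Gy, 4 h COL18A1 and COL2A1 were added with no intensity trend, array weights or that filter. Without both narrow arrays COL18A1 at 2 Gy, 24 h was lost (limma adjusted p = 0.0715). That setting added COL1A2 at 0 Gy, 24 h and COL5A2 at 2 Gy, 24 h. Without 1 array, the genes higher ranged from 2 to 4 at 0 Gy, 4 h, from 1 to 3 at 2 Gy, 4 h and from 1 to 4 at 0 Gy, 24 h, and the genes lower ranged from 2 to 4 at 2 Gy, 4 h and from 4 to 7 on average. Leaving out an array lowers the number of samples; other causes of these changes were not tested. In the response, response difference and time comparisons 0 collagen genes were called by limma under any setting run. Using only the compared arrays changes nothing in the averaged comparison, which uses all of them. Signals near background limit what can be seen of the 15 collagen genes that were not above background on every array.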
